A study of Rattus norvegicus with 11 samples.

Results

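The 6 solute carrier families Slc1a, Slc3a, Slc7a, Slc36a, Slc38a and Slc43a hold most of the carriers that move amino acids across the plasma membrane and the lysosomal membrane. Every line of the expression table whose gene name begins with 1 of these family names and a number was taken, which gave 43 of 32883 genes. There were 7 of Slc1a, 2 of Slc3a, 16 of Slc7a, 4 of Slc36a, 11 of Slc38a and 3 of Slc43a. One of the Slc7a names, Slc7a6os, belongs to a gene named for its place beside Slc7a6 that encodes no carrier, and it was left out of the sums of levels, which therefore cover 42 genes. It stayed in the counts of genes tested and called.

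Rat bone marrow mesenchymal stem cells (BMSCs), the adherent stromal cells of marrow, were sequenced on day 3 in 11 mRNA libraries. The 4 control libraries carry the name of the cells alone, 3 carry the addition imDC and 4 the addition IRDC. The series text describes medium conditioned by dendritic cells, the antigen-presenting cells of the immune system, that were left unirradiated (0 Gy) or irradiated (8 Gy). No title states a dose: that imDC is the 0 Gy and IRDC the 8 Gy medium was read from the names, and the series text writes mDC where the titles write imDC. The strain, sex and age of the rats, the medium of the controls, the maturation of the dendritic cells and the number of batches of conditioned medium are not given in the sources used here. Products of dendritic cells, a batch of medium and other differences between media therefore cannot be told apart. Libraries are numbered as biological replicates, but whether each came from its own animal or culture is not given, so the spread behind every p-value may be technical.

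Cells take up amino acids with carriers of several kinds. Some run down the sodium gradient, some exchange an amino acid outside for another inside, and some let their substrates pass along the concentration gradient or with a proton. Several Slc7a carriers are light chains that reach the plasma membrane only when joined to a heavy chain, Slc3a2 (also called CD98 or 4F2hc) or Slc3a1. Uptake of leucine, glutamine and arginine feeds protein synthesis and the mTORC1 kinase, a sensor of amino acid supply at the lysosome. Uptake of cystine feeds glutathione. The transcription factor ATF4, made when amino acids run short, is known to raise transcription of many of these carrier genes in mammalian cells.

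Levels are in FPKM (fragments scaled to transcript length and to mapped reads), so genes can be set against each other. The values resolved into whole reads, and a library held 17.8 to 25.5 M of them. Of the 43 genes, 28 reached at least 1 FPKM in at least 3 libraries and were tested among 12521 genes. Slc1a2 had libraries at 1 FPKM in control alone, Slc1a1 and Slc7a3 in imDC and IRDC, Slc43a3 in control and imDC, and the other 24 in all 3 groups. Slc1a2, Slc1a1, Slc7a3 and Slc43a3 stay in the counts of calls below, though the filter favoured a difference between the groups for them. Summed levels of 9 stromal markers were 5397 to 5577 FPKM in control, 5561 to 5599 in imDC and 5773 to 5849 in IRDC. That order rested on the collagen gene Col1a1. Without it the sum was highest in control, at 3681 to 3786 FPKM, against 3186 to 3201 in imDC and 3323 to 3350 in IRDC. Of 26 dendritic cell and macrophage markers 13 were tested, and the summed level of the list was 881 to 901 FPKM in control, 862 to 894 in imDC and 537 to 541 in IRDC. The macrophage gene Lyz2, at 519 ± 5.87, 496 ± 11.2 and 185 ± 3.25 FPKM in control, imDC and IRDC, carried nearly all of the net fall of the sum. Without it the sum was 363 to 377, 377 to 386 and 352 to 357 FPKM, in which rises and falls of single genes offset each other. Of the 13 tested, 9 were lower (69.2%) and 4 higher (30.8%) in IRDC than in control, where 51.5% and 24.5% of all genes were. Cd68, at 124 ± 2.72, 84.9 ± 5.05 and 69.8 ± 2.22 FPKM, was among those lower. Some other macrophage genes of the list were highest in IRDC: the scavenger receptor gene Cd163 had 0.956 ± 0.242, 20.3 ± 0.306 and 27.5 ± 0.879 FPKM, the mannose receptor gene Mrc1 47.9 ± 0.672, 69.2 ± 0.960 and 77.9 ± 1.13 FPKM and Cd14, of a receptor for bacterial lipopolysaccharide, 47.9 ± 2.49, 74.5 ± 4.96 and 89.1 ± 2.32 FPKM. The scavenger receptor gene Marco and the dendritic cell gene Xcr1 had 0 reads in every library, and Flt3 and Clec9a stayed at or under 0.1 FPKM. None of 7 lymphocyte or 6 endothelial markers passed the filter. The part of macrophage RNA in the transporter levels was not tested, and in bulk RNA fewer cells of a type and less RNA per cell cannot be told apart.

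Transporter genes differed between the groups in both directions. Levels are given below as FPKM by library or as mean ± SD (n = 4 control, 3 imDC and 4 IRDC libraries). Differences are on the log2(FPKM + 1) scale, which understates the change of low genes, with their standard error (SE) and the adjusted p of limma over all genes tested. Where 3 values follow each other, means are in the order control, imDC and IRDC, and differences in the order imDC against control, IRDC against control and IRDC against imDC. A gene was called higher or lower at an adjusted p under 0.05. In imDC against control 12 transporter genes were higher and 7 lower, so 67.9% of the 28 were called, against 63.2% of all genes. Of all genes 23.1% were higher and 40.1% lower. In IRDC against control 12 were higher and 12 lower, or 85.7%, against 76.0% of all genes, of which 24.5% were higher and 51.5% lower. Slc7a6os, which encodes no carrier, was among the 12 lower. In IRDC against imDC 11 were higher and 8 lower, or 67.9%, against 58.8% of all genes, of which 20.2% were higher and 38.6% lower. With the authors' scaling the shares of transporter genes called higher were 42.9%, 42.9% and 39.3% in these 3 comparisons, above those of all genes. The shares called lower were 25.0%, 42.9% and 28.6%, below them. At least 1.5-fold higher by call were 8, 8 and 5 genes, or 28.6%, 28.6% and 17.9%, where 7.87%, 10.5% and 4.83% of all genes were. At least 1.5-fold lower were 3, 10 and 3, or 10.7%, 35.7% and 10.7%, where 9.66%, 20.8% and 9.44% of all genes were. The libraries of the groups did not overlap for 19, 24 and 19 transporter genes, and for 62.8%, 70.2% and 59.0% of all genes. Shares called in either direction were thus not far above the background, while shares called higher were further above it. The median change of the 28 genes was 0.09, -0.02 and -0.05 in these comparisons, beside -0.09, -0.18 and -0.09 for all genes. The comparisons share libraries and are not independent of each other.

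The authors' scaling bears on that split. TMM-like scaling, which lines up the bulk of genes between libraries, moved the median of all genes up by 0.08, 0.16 and 0.08 in the 3 comparisons, and quantile normalization moved it up by 0.05, 0.15 and 0.10. Of the calls over all genes 36.6%, 32.3% and 34.4% were higher with the authors' scaling. The shares were 49.3%, 48.1% and 47.9% under the TMM-like factors, and 44.2%, 46.3% and 50.2% after quantile normalization. Transporter counts under TMM-like scaling were 16 higher and 7 lower, 13 and 10, and 11 and 8. Of 12505 genes tested there 7489, 9100 and 7149 were called, 3692, 4374 and 3425 of them higher. Under quantile normalization the transporter counts were 14 and 7, 14 and 11, and 12 and 8. Of 12521 genes 7689, 9070 and 7061 were called, 3396, 4197 and 3547 of them higher. Under these scalings the shares called lower were close to those of all genes in the comparisons of IRDC, so that gap depends on the scaling.

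**Figure D1:**
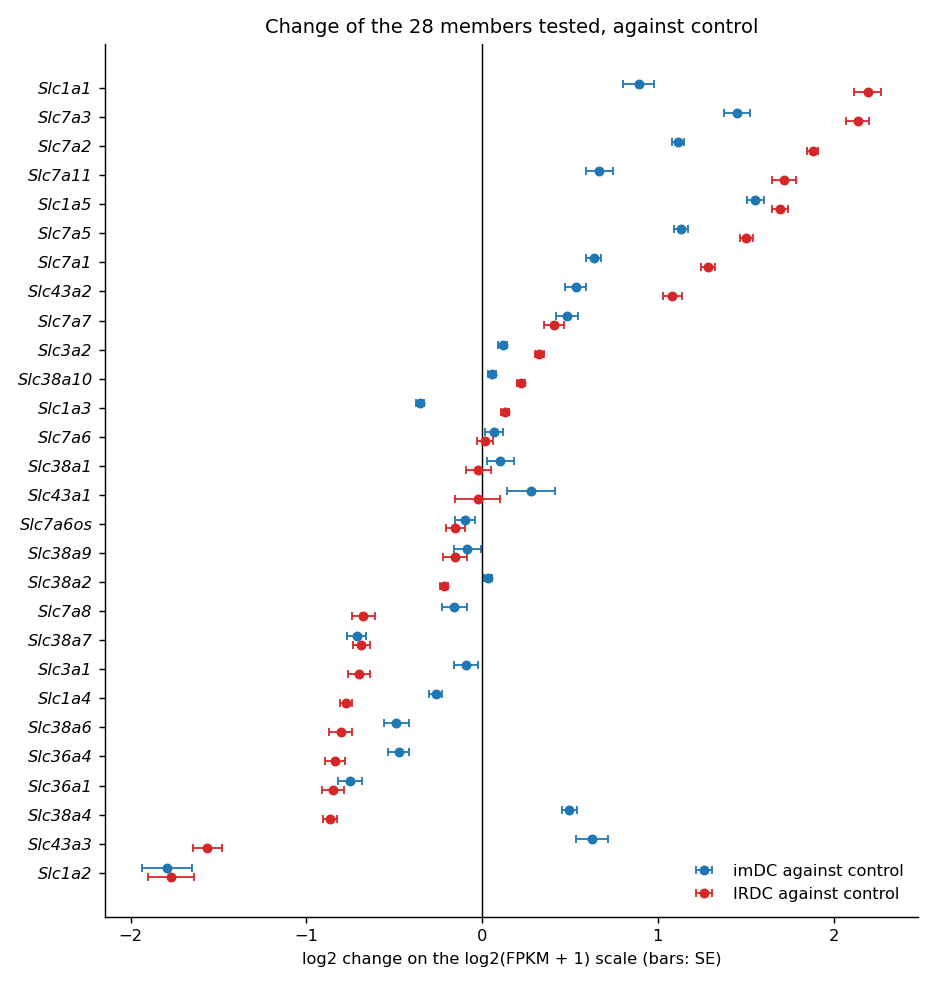
Change of the 28 transporter-family genes tested, on the log2(FPKM + 1) scale, in imDC (blue) and IRDC (red) against the 4 control libraries, with bars for the SE, ordered by the change in IRDC. Slc1a1 and Slc7a3 lie at the top (2.19 and 2.14 in IRDC), Slc1a2 at the bottom (-1.77), and Slc38a4 and Slc43a3 lie above 0 in imDC and below 0 in IRDC.

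The 28 genes fell into patterns across the 3 groups. Higher in imDC than in control and higher again in IRDC were 9 genes: Slc1a1, Slc1a5, Slc3a2, Slc7a1, Slc7a2, Slc7a3, Slc7a5, Slc7a11 and Slc43a2. Of all genes 9.65% took that course. Lower at both steps were 3 genes (Slc1a4, Slc36a4 and Slc38a6), against 19.96% of all genes. Slc38a4 and Slc43a3 were higher in imDC and then lower in IRDC, a course of 7.40% of all genes, and Slc1a3 was lower and then higher, a course of 5.39%. Slc1a2, Slc36a1 and Slc38a7 were lower in imDC with no further call, and Slc7a7 higher with no further call. Slc3a1, Slc7a8 and Slc38a2 were called lower and Slc38a10 higher at the second step and not at the first, which is no test that the steps differ. Slc7a6, Slc7a6os, Slc38a1, Slc38a9 and Slc43a1 were called at neither step.

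**Figure D2:**
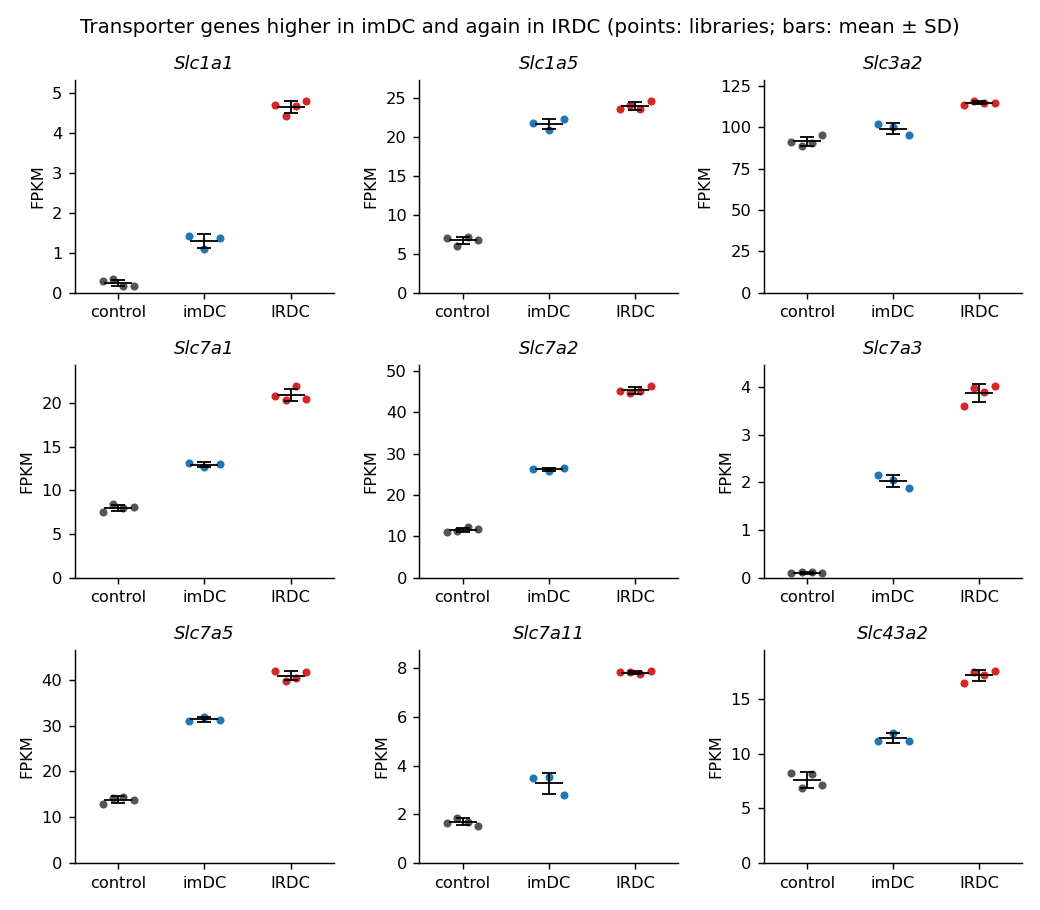
FPKM of the 9 transporter genes higher in imDC than in control and higher again in IRDC, each point a library, black bars the mean ± SD of each group (n = 4, 3 and 4). The groups do not overlap in any panel, and the step from imDC to IRDC is small for Slc1a5 (21.6 to 23.9 FPKM) and larger for Slc7a11 (3.27 to 7.82 FPKM).

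The heavy chain gene Slc3a2 and the light chain genes Slc7a5 and Slc7a11 rose at both steps, while the light chain gene Slc7a8 was lower in IRDC. Slc3a2 stood at 91.0, 88.5, 90.7 and 95.2 FPKM in control, 102, 100.1 and 95.4 in imDC and 114, 116, 114 and 115 in IRDC. All groups were apart, though the lowest imDC library lay just above the highest control library. Its log2 changes were 0.12 (SE 0.027, adjusted p = 0.0027) in imDC against control, 0.33 (SE 0.025, adjusted p = 1.3e-07) in IRDC against control and 0.21 (SE 0.027, adjusted p = 3.5e-05) in IRDC against imDC. Slc7a5 encodes LAT1, the light chain that exchanges leucine and other large neutral amino acids. It stood at 12.8, 14.2, 14.4 and 13.7 FPKM in control, 30.9, 32.0 and 31.2 in imDC and 41.8, 39.7, 40.4 and 41.7 in IRDC. Every imDC library lay far above every control library, and IRDC was above imDC without overlap. The changes of Slc7a5 were 1.13 (SE 0.040, adjusted p = 1.2e-10), 1.503 (SE 0.037, adjusted p = 1.1e-12) and 0.37 (SE 0.040, adjusted p = 5.3e-06). The ratio of Slc7a5 to Slc3a2 in FPKM was 0.151 ± 0.0103 in control, 0.316 ± 0.0120 in imDC and 0.357 ± 0.0112 in IRDC.

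Slc7a11 encodes xCT, the light chain that takes up cystine in exchange for glutamate. It stood at 1.66, 1.86, 1.70 and 1.51 FPKM in control, 3.50, 3.53 and 2.79 in imDC and 7.83, 7.83, 7.75 and 7.87 in IRDC. The third imDC library was the lowest of its group, and no groups overlapped. The changes were 0.67 (SE 0.075, adjusted p = 7e-06), 1.72 (SE 0.069, adjusted p = 1.6e-10) and 1.05 (SE 0.075, adjusted p = 1.3e-07), and whether the steps differ was not tested. Slc7a8, the gene of the second light chain for large neutral amino acids (LAT2), went the other way, at 4.21, 4.23, 4.82 and 4.52 FPKM in control, 4.30, 3.62 and 3.73 in imDC and 2.51, 2.30, 2.49 and 2.33 in IRDC. Control and imDC overlapped, while every IRDC library lay below both. Its change was -0.16 (SE 0.070, adjusted p = 0.068) in imDC, not called, -0.68 (SE 0.065, adjusted p = 9.4e-07) in IRDC against control and -0.52 (SE 0.070, adjusted p = 4.6e-05) in IRDC against imDC. RefSeq places non-coding genes over Slc7a8, whose reads could be counted with it since the strand setting of the counting is not given.

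Of the remaining light chain genes Slc7a7 was higher than control in both media, Slc7a6 moved little and Slc7a10 was near 0. Slc7a6 (y+LAT2), which exchanges arginine for glutamine, had means of 15.7 ± 0.975, 16.4 ± 0.273 and 15.8 ± 0.706 FPKM in control, imDC and IRDC. With the authors' scaling it was not called in any comparison, but it was higher by call against control in imDC (0.15 by TMM-like scaling and 0.13 by quantile normalization) and in IRDC (0.19 and 0.16). Slc7a7 (y+LAT1), a carrier of the same exchange known in macrophages and epithelia, had 8.19 ± 0.552, 11.9 ± 0.914 and 11.2 ± 0.490 FPKM. It was higher in imDC by 0.48 (adjusted p = 2.2e-05) and in IRDC by 0.41 (adjusted p = 2.8e-05), with no call between them. Of the 13 dendritic cell and macrophage markers tested, Cd163, Mrc1, Cd14 and Itgam were also higher than control in both media, and Ptprc, Cd68, Csf1r, Cd83, Tyrobp and Lyz2 were lower in both. Their part in the level of Slc7a7 was not tested. Slc7a10, an exchanger of small neutral amino acids and D-serine, had 8, 7, 7 and 10 reads in the control libraries, 3, 9 and 5 in imDC and 0 in all 4 IRDC libraries. With 3 reads as the floor over the IRDC group it was 9.95-fold lower there than in control and 8.50-fold lower than in imDC. These folds take the few control and imDC reads as exact, so they are no strict lower bounds. Slc7a10 overlaps Lrp3 in RefSeq, so the origin of those few reads cannot be told apart.

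Summed over the 6 light chain genes, the level was 44.0 ± 1.96 FPKM in control, 66.9 ± 1.39 in imDC and 78.1 ± 1.40 in IRDC. Divided by Slc3a2 this was 0.482 ± 0.0302, 0.676 ± 0.0164 and 0.682 ± 0.0158, so imDC and IRDC overlapped in the ratio and both lay above control. In control Slc7a6 held 35.6 ± 1.00% of the light chain sum and Slc7a5 31.4 ± 1.43%. In imDC Slc7a5 led with 46.8 ± 0.693% against 24.5 ± 0.917% for Slc7a6, and in IRDC with 52.3 ± 0.492% against 20.2 ± 0.613%. The share of Slc7a11 was 3.83 ± 0.320% in control, 4.88 ± 0.547% in imDC and 10.0 ± 0.144% in IRDC. The share of Slc7a8 was 10.1 ± 0.467%, 5.80 ± 0.571% and 3.08 ± 0.145%. These are shares of transcript levels and not of protein.

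**Figure D3:**
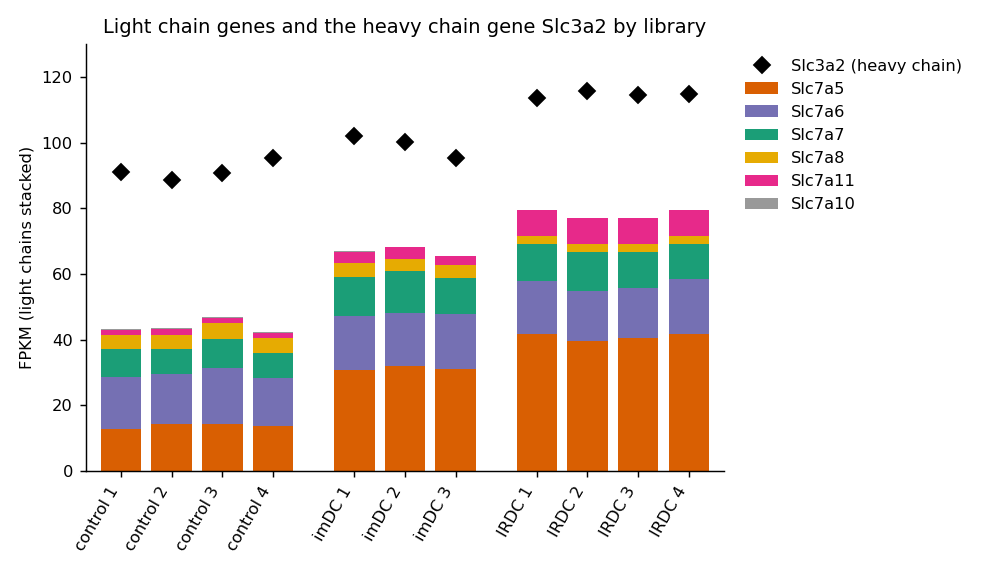
FPKM of the 6 light chain genes stacked for each of the 11 libraries, with the heavy chain gene Slc3a2 as black diamonds on the same axis. The stack grows from 44.0 FPKM in control to 66.9 in imDC and 78.1 in IRDC on average while Slc3a2 goes from 91.4 to 99.1 and 115 FPKM, and Slc7a10 is too low to be seen.

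All 3 genes of the cationic carriers, which take up arginine, lysine and ornithine without a heavy chain, rose at both steps. Slc7a2 (CAT2), the carrier known to supply arginine to activated macrophages, was the highest of them. It stood at 11.0, 11.3, 12.2 and 11.8 FPKM in control, 26.3, 25.9 and 26.5 in imDC and 45.1, 44.6, 45.0 and 46.3 in IRDC. Libraries of a group lay close together and the groups were far apart. The changes were 1.12 (SE 0.035, adjusted p = 3.6e-11) in imDC against control, 1.88 (SE 0.032, adjusted p = 3.5e-14) in IRDC against control and 0.76 (SE 0.035, adjusted p = 1.9e-09) in IRDC against imDC. Slc7a1 (CAT1), the carrier of most cell types, stood at 7.55, 8.399, 7.94 and 8.05 FPKM in control, 13.2, 12.6 and 13.0 in imDC and 20.8, 20.4, 21.9 and 20.5 in IRDC, again without overlap. Its steps were 0.63 (SE 0.043, adjusted p = 5.9e-08) from control to imDC and 0.65 (SE 0.043, adjusted p = 5.8e-08) from imDC to IRDC. Slc7a3 (CAT3), known mainly from brain, had 6, 8, 10 and 6 reads in the control libraries, or 0.108 ± 0.0183 FPKM. It reached 2.14, 2.05 and 1.88 FPKM in imDC and 3.60, 3.97, 3.88 and 4.01 in IRDC. Its changes were 1.45 (SE 0.073, adjusted p = 3.8e-09), 2.14 (SE 0.068, adjusted p = 1.5e-11) and 0.69 (SE 0.073, adjusted p = 5.5e-06), from a level near 0 that the log2(FPKM + 1) scale compresses. Slc7a3 passed the filter through imDC and IRDC alone, which favours a rise. Its adjusted p values against control are therefore no separate support for that rise. Summed, the 3 genes stood at 19.7 ± 0.699 FPKM in control, 41.2 ± 0.556 in imDC and 70.0 ± 0.956 in IRDC.

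The promoters of 3 tested transporter genes held a letter match to the element bound by ATF4 with C/EBP proteins. They are all the matches found among the tested genes with a promoter in RefSeq. The courses of the 3 genes differed: Slc7a1 rose at both steps, Slc1a4 fell at both and Slc38a1 was not called. Each sequence is the 250 bases before the RefSeq start in the GRCr8 assembly. It is written 5′ to 3′ on the gene's strand with the match to TGATGNAA, or to its reverse complement, in capitals. The table of promoters is not on the rn6 build of the expression data, so its coordinates do not apply to that build.
Slc7a1, chr12:11664238-11664487, plus strand: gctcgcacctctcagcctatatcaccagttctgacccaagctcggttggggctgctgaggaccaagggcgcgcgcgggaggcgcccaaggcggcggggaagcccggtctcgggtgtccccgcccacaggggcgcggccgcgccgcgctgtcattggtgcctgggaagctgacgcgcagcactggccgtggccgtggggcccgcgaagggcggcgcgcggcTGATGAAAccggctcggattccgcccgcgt
Slc1a4, chr14:98761563-98761812, minus strand: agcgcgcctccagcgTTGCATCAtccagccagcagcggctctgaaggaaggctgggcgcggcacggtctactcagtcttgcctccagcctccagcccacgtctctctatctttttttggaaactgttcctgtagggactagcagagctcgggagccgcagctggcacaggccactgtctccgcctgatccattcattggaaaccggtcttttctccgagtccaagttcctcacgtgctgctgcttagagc
Slc38a1, chr7:129681402-129681651, minus strand: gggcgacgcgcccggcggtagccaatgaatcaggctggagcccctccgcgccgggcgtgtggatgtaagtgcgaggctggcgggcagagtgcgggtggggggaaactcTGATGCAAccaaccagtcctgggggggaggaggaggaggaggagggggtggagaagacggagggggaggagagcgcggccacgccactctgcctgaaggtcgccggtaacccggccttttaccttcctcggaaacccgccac
The match begins 30 bases before the start of Slc7a1, 235 before that of Slc1a4 (on the opposite strand) and 142 before that of Slc38a1. RefSeq held promoters for 33 of the 43 genes, 22 of them tested. Of the 26 promoters of these 22 genes 3 (11.5%) had this match, beside 3.40% of all 33469 promoters. Of the 9 genes higher at both steps 5 were in the table, and 1 of these 5, Slc7a1, had it. The letters TGACNNNGC of the antioxidant element were in 6 of the 22 (Slc36a1, Slc38a2, Slc3a1, Slc3a2, Slc7a1 and Slc7a7). By promoter that was 6 of the 26 (23.1%), beside 10.1% of all promoters. The core ACGTG of the hypoxia element was in 9 of the 22 (Slc1a2, Slc1a3, Slc1a4, Slc36a1, Slc38a7, Slc3a2, Slc43a1, Slc7a5 and Slc7a6). By promoter that was 11 of the 26 (42.3%), beside 16.6% of all promoters. Both strands were searched, some genes have more than 1 promoter, and a match describes letters and not a bound site.

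The Slc1a family holds sodium-driven glutamate carriers and neutral amino acid exchangers, and its genes took opposite courses. Slc1a5 (ASCT2), the main glutamine exchanger of many growing cells, stood at 6.97, 6.02, 7.10 and 6.78 FPKM in control, 21.8, 20.9 and 22.2 in imDC and 23.6, 24.0, 23.6 and 24.6 in IRDC. Control was far below both other groups, which lay close together. Its change was 1.55 (SE 0.049, adjusted p = 4.3e-11) in imDC and 1.69 (SE 0.046, adjusted p = 2.9e-12) in IRDC against control. Between IRDC and imDC it was 0.14 (SE 0.049, adjusted p = 0.028), and that call was lost without imDC library 1 (adjusted p = 0.057), imDC library 2 (0.11), IRDC library 2 (0.053) or IRDC library 4 (0.067). Slc1a4 (ASCT1), an exchanger of alanine, serine and cysteine, fell, at 38.2, 37.6, 39.5 and 39.8 FPKM in control, 30.9, 32.6 and 32.8 in imDC and 21.5, 22.3, 23.4 and 21.9 in IRDC. The groups did not overlap, and the changes were -0.27 (SE 0.036, adjusted p = 3.7e-05), -0.78 (SE 0.033, adjusted p = 3e-10) and -0.51 (SE 0.036, adjusted p = 1.2e-07). In FPKM Slc1a4 was 5.79 ± 0.345 times Slc1a5 in control, 1.49 ± 0.0723 times in imDC and 0.930 ± 0.0438 times in IRDC. Their sum was 45.5 ± 1.42, 53.7 ± 1.19 and 46.2 ± 0.812 FPKM, so IRDC overlapped control in the sum while the order of the genes had turned.

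Of the glutamate carriers Slc1a3 (GLAST), known from astrocytes, was by far the highest. It stood at 86.6, 89.8, 86.4 and 89.0 FPKM in control, 68.4, 70.1 and 67.5 in imDC and 94.9, 96.2, 96.8 and 97.3 in IRDC. The imDC libraries were the lowest and the IRDC libraries the highest, without overlap. The changes were -0.35 (SE 0.022, adjusted p = 2.7e-08) in imDC against control, 0.13 (SE 0.020, adjusted p = 7.7e-05) in IRDC against control and 0.48 (SE 0.022, adjusted p = 1.8e-09) in IRDC against imDC. Slc1a1 (EAAT3), which also carries cysteine, had 23, 28, 16 and 14 reads in the control libraries. It stood at 0.290, 0.333, 0.168 and 0.174 FPKM there, 1.43, 1.09 and 1.38 in imDC and 4.72, 4.44, 4.69 and 4.81 in IRDC, rising at both steps without overlap. The changes of Slc1a1 were 0.89 (SE 0.086, adjusted p = 1.8e-06), 2.19 (SE 0.079, adjusted p = 5.5e-11) and 1.30 (SE 0.086, adjusted p = 6.1e-08), and Spata6l overlaps it in RefSeq, so reads of the pair cannot be told apart. Slc1a1 passed the filter through imDC and IRDC alone, which favours a rise. Its adjusted p values against control are therefore no separate support for a rise. Slc1a2 (GLT-1), the chief glutamate carrier of forebrain, stood at 3.74, 2.87, 2.58 and 1.95 FPKM in control, where the libraries spread widely. It had 1, 3 and 0 reads in the imDC and 1, 3, 2 and 1 in the IRDC libraries. Its changes were -1.79 (SE 0.14, adjusted p = 2.9e-07) and -1.77 (SE 0.13, adjusted p = 7.6e-08) against control, with 0.02 (SE 0.14, adjusted p = 0.92) between imDC and IRDC. Slc1a2 passed the filter through control alone, which favours a fall, so the adjusted p values against control are no separate support for it. Slc1a6 and Slc1a7, further glutamate carriers known from cerebellum and retina, stayed under the filter. Slc1a7 had 17, 9, 37 and 11 reads in control, 18, 9 and 9 in imDC and 2, 0, 1 and 2 in IRDC.

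Carriers of system A, which take up glutamine and small neutral amino acids with sodium, included the highest transporter gene of all. Slc38a2 (SNAT2) stood at 171, 178, 173 and 169 FPKM in control, 181, 177 and 172 in imDC and 151, 151, 145 and 148 in IRDC. Control and imDC overlapped, and every IRDC library lay below both. Its change was 0.03 (SE 0.024, adjusted p = 0.24) in imDC, not called, and -0.21 (SE 0.022, adjusted p = 2.1e-06) in IRDC against control, with -0.25 (SE 0.024, adjusted p = 2.4e-06) in IRDC against imDC. With TMM-like scaling the change in imDC was called (0.13, adjusted p = 0.0015) and that in IRDC against control was not (-0.03, adjusted p = 0.23). Slc38a4 (SNAT4), known mainly from liver, stood at 20.6, 20.3, 20.3 and 20.1 FPKM in control, 28.2, 29.9 and 29.1 in imDC and 10.3, 10.8, 10.1 and 11.6 in IRDC. The imDC libraries were the highest and the IRDC libraries the lowest, with no overlap. The changes were 0.50 (SE 0.043, adjusted p = 6.8e-07), -0.87 (SE 0.040, adjusted p = 6.6e-10) and -1.36 (SE 0.043, adjusted p = 6.4e-11). RefSeq places non-coding genes over Slc38a4, as it does over Slc7a8. Slc38a1 (SNAT1) was low, with means of 3.54 ± 0.242, 3.88 ± 0.175 and 3.49 ± 0.417 FPKM, and was not called, except that it was higher in IRDC than in control with quantile normalization (0.22, adjusted p = 0.015) against -0.02 with the authors' scaling. Without IRDC library 3 it was called lower in IRDC than in imDC (-0.19, adjusted p = 0.037). The system A genes summed to 197 ± 4.17 FPKM in control, 209.9 ± 4.55 in imDC and 163 ± 2.43 in IRDC.

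**Figure D4:**
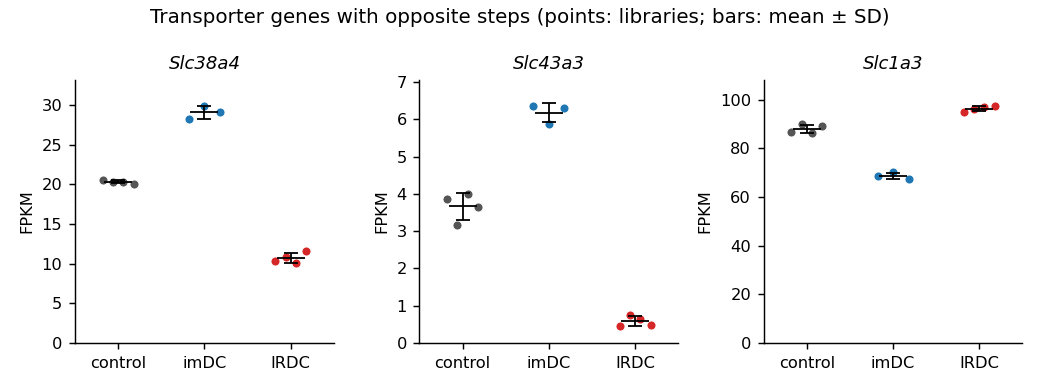
FPKM of Slc38a4, Slc43a3 and Slc1a3, each point a library and black bars the mean ± SD of each group (n = 4, 3 and 4). Slc38a4 and Slc43a3 are highest in imDC (29.1 and 6.19 FPKM) and lowest in IRDC, whereas Slc1a3 is lowest in imDC (68.7 FPKM).

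The Slc43a genes also diverged. Slc43a2 (LAT4), which lets branched-chain and other large neutral amino acids pass along their gradient, stood at 8.27, 6.87, 8.15 and 7.14 FPKM in control, 11.2, 11.9 and 11.1 in imDC and 16.5, 17.4, 17.2 and 17.5 in IRDC. It rose at both steps without overlap, by 0.53 (SE 0.060, adjusted p = 7.6e-06) and 0.55 (SE 0.060, adjusted p = 7e-06). Slc43a3, which carries purine nucleobases and no amino acid as far as is known, stood at 3.87, 3.16, 4.00 and 3.64 FPKM in control, 6.36, 5.88 and 6.32 in imDC and 0.462, 0.746, 0.640 and 0.476 in IRDC. It had the same order of groups as Slc38a4, imDC highest and IRDC lowest, and the changes were 0.63 (SE 0.089, adjusted p = 5.6e-05), -1.56 (SE 0.082, adjusted p = 2.4e-09) and -2.19 (SE 0.089, adjusted p = 6.6e-10). Slc43a3 passed the filter through control and imDC alone, which favours a fall in IRDC. The adjusted p values of the comparisons of IRDC are therefore no separate support for that fall. Of the 13 dendritic cell and macrophage markers tested 9 were lower and 3 higher in IRDC than in imDC, where 38.6% and 20.2% of all genes were. Adgre1 and Cd74 had the order of groups of Slc43a3, whereas Cd163, Mrc1 and Cd14 were highest in IRDC. The part of these cells in the result was not tested. Slc43a1 (LAT3), a carrier like Slc43a2, varied from library to library, with 2.41, 3.15, 2.86 and 2.22 FPKM in control, 3.95, 2.701 and 3.70 in imDC and 3.18, 2.69, 2.56 and 1.97 in IRDC. All its groups overlapped and it was not called (adjusted p = 0.092, 0.86 and 0.072), but it was called higher in imDC than in control with TMM-like scaling (0.35), quantile normalization (0.33) and voom on recovered reads (0.36), and without imDC library 2 (0.41). In IRDC against imDC it was called lower with voom (-0.41) and without imDC library 2 (-0.43) or IRDC library 1 (-0.38).

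Slc36a1 and Slc36a4, of a single carrier family, and the lysosomal carrier gene Slc38a7 were lower than control in imDC and in IRDC. Slc36a1 (PAT1), which moves small amino acids out of the lysosome with protons, stood at 10.1, 9.85, 10.7 and 9.51 FPKM in control, 5.73, 5.88 and 5.09 in imDC and 4.67, 5.71, 5.12 and 5.05 in IRDC. The imDC and IRDC libraries overlapped and lay well below control. The changes were -0.75 (SE 0.068, adjusted p = 9.9e-07) and -0.85 (SE 0.063, adjusted p = 7.5e-08) against control and -0.10 (SE 0.068, adjusted p = 0.24) between imDC and IRDC. Slc36a4 (PAT4), a high-affinity amino acid carrier, stood at 14.1, 14.5, 15.3 and 13.5 FPKM in control, 10.9, 9.37 and 9.89 in imDC and 7.76, 7.86, 7.89 and 6.93 in IRDC. It fell at both steps without overlap, with changes of -0.48 (SE 0.062, adjusted p = 2.6e-05) and -0.36 (SE 0.062, adjusted p = 0.0003), and a protein-coding RefSeq gene without a name overlaps it. Slc36a2 and Slc36a3 had at most 2 reads in any library. The family summed to 24.5 ± 1.20 FPKM in control, 15.7 ± 0.892 in imDC and 12.8 ± 0.695 in IRDC.

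Slc38a7, the gene of a lysosomal exporter of glutamine and asparagine, stood at 17.7, 17.6, 18.8 and 18.3 FPKM in control, 10.8, 9.96 and 11.3 in imDC and 11.4, 10.0, 11.4 and 10.7 in IRDC. Both media lay below control and overlapped each other. The changes were -0.71 (SE 0.053, adjusted p = 1.6e-07), -0.69 (SE 0.049, adjusted p = 5.4e-08) and, between imDC and IRDC, 0.03 (SE 0.053, adjusted p = 0.68). Slc38a6, a family member whose substrates are less settled, stood at 10.7, 12.6, 12.7 and 12.0 FPKM in control, 7.47, 8.73 and 8.64 in imDC and 6.50, 5.93, 6.87 and 6.49 in IRDC. It fell at both steps without overlap, with changes of -0.49 (SE 0.071, adjusted p = 6.6e-05) and -0.32 (SE 0.071, adjusted p = 0.0021), and it overlaps Trmt5, a tRNA methyltransferase gene, in RefSeq. Slc38a9, whose protein senses lysosomal arginine for mTORC1, had means of 3.54 ± 0.302, 3.28 ± 0.332 and 3.08 ± 0.133 FPKM and was not called, with -0.15 (SE 0.070, adjusted p = 0.063) in IRDC against control. That difference was called without control library 4 (-0.19, adjusted p = 0.034), without a trend in the variance (-0.15, adjusted p = 0.034) and with voom (-0.21, adjusted p = 0.024). Slc38a10, a member of high level that is less well studied, stood at 80.3, 79.7, 83.3 and 80.8 FPKM in control, 83.4, 82.9 and 86.2 in imDC and 92.4, 95.2, 95.2 and 95.5 in IRDC. IRDC lay above both other groups, which overlapped. It rose in IRDC by 0.22 (SE 0.021, adjusted p = 9.5e-07) against control and 0.17 (SE 0.023, adjusted p = 5.4e-05) against imDC, while imDC against control gave 0.06 (SE 0.023, adjusted p = 0.053), a difference that was called without control library 3 (0.07, adjusted p = 0.021) and with TMM-like scaling (0.15, adjusted p = 0.00011), array weights or voom (0.06 each).

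**Figure D5:**
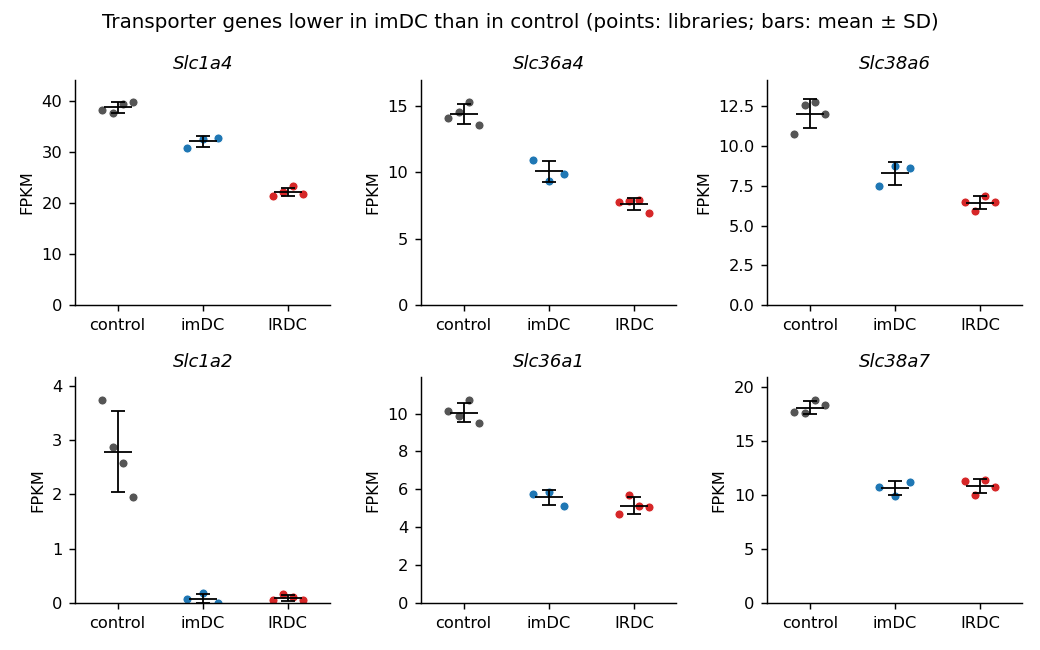
FPKM of the 6 transporter genes lower in imDC than in control and not higher in IRDC than in imDC, each point a library and black bars the mean ± SD of each group (n = 4, 3 and 4). Slc1a4, Slc36a4 and Slc38a6 step down again in IRDC, whereas imDC and IRDC overlap for Slc1a2, Slc36a1 and Slc38a7.

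Slc3a1 (rBAT), the heavy chain of the cystine carrier of kidney and gut, stood at 3.43, 3.20, 3.41 and 3.06 FPKM in control, 3.21, 2.81 and 3.00 in imDC and 1.56, 1.74, 1.67 and 1.55 in IRDC. Control and imDC overlapped, and every IRDC library lay below both. The change was -0.09 (SE 0.069, adjusted p = 0.25) in imDC, -0.70 (SE 0.064, adjusted p = 5.3e-07) in IRDC against control and -0.61 (SE 0.069, adjusted p = 9.5e-06) in IRDC against imDC. Slc3a1 overlaps Prepl in RefSeq. Its light chain gene Slc7a9 had 3, 1, 5 and 3 reads in the control libraries, 2, 0 and 0 in imDC and 0 in all IRDC libraries. With the floor of 3 reads over the group Slc7a9 was 3.73-fold lower in IRDC than in control, taking the control reads as exact. Slc7a4, of the cationic branch by sequence, was the highest gene under the filter. It had 28, 18, 25 and 21 reads in control, 8, 3 and 4 in imDC and 2, 3, 4 and 3 in IRDC. Slc38a3 (SNAT3), a glutamine carrier of liver, kidney and brain, had 13, 10, 25 and 10 reads in control, 5, 6 and 2 in imDC and 3, 1, 2 and 3 in IRDC. Of the 15 genes under the filter 12 had at most 10 reads in each library, which is too few for a test: Slc1a6, Slc7a9, Slc7a10, Slc7a12, Slc7a13, Slc7a14, Slc7a15, Slc36a2, Slc36a3, Slc38a5, Slc38a8 and Slc38a11. Slc7a6os, which encodes no carrier, had 16.5 ± 0.803, 15.4 ± 1.17 and 14.8 ± 0.821 FPKM and was called lower in IRDC than in control by 0.15 (adjusted p = 0.021), a call lost without control library 3 (adjusted p = 0.058), control library 4 (0.059) or IRDC library 2 (0.066) and turned to 0.017 (adjusted p = 0.78) with TMM-like scaling.

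By level a few genes made up most of the summed transporter transcripts. In control the order was Slc38a2 (173 ± 4.00 FPKM), Slc3a2 (91.4 ± 2.77), Slc1a3 (87.9 ± 1.71), Slc38a10 (81.0 ± 1.57) and Slc1a4 (38.8 ± 1.04), and the libraries of Slc3a2 and Slc1a3 overlapped. In IRDC Slc38a2 (149 ± 2.62) and Slc3a2 (115 ± 0.880) still led, Slc1a3 (96.3 ± 1.02) and Slc38a10 (94.6 ± 1.48) overlapped, and Slc7a2 (45.3 ± 0.730) and Slc7a5 (40.9 ± 1.03) followed. The 4 highest held 67.1 ± 0.649% of the sum in control, 62.3 ± 0.401% in imDC and 62.8 ± 0.302% in IRDC. The sum over the 42 genes was 646 ± 6.84 FPKM in control, 688 ± 6.95 in imDC and 723 ± 2.95 in IRDC, rising without overlap between libraries. The share of Slc7a2 in it was 1.79 ± 0.0661%, 3.81 ± 0.0708% and 6.26 ± 0.0919%, and that of Slc1a4 6.01 ± 0.155%, 4.67 ± 0.192% and 3.08 ± 0.112%.

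Counts over the lists of related genes below are to be read against the shares of all genes, which were 23.1% higher and 40.1% lower in imDC against control, 24.5% and 51.5% in IRDC against control, and 20.2% and 38.6% in IRDC against imDC. The lists were chosen with earlier results of these data known, so a share above that of all genes is description and not a test. Of 20 carriers of amino acids in other families 3 were higher and 13 lower (65.0%) in imDC against control. In IRDC against control 6 were higher and 11 lower, and the latter share, 55.0%, was near the 51.5% of all genes. In IRDC against imDC 7 were higher and 5 lower, where TMM-like scaling gave 3 lower and quantile normalization 2. Their median changes were -0.30, -0.44 and 0.04. Slc6a9, the glycine carrier GlyT1, had 5.09 ± 0.331, 10.1 ± 0.703 and 13.6 ± 0.618 FPKM and was higher in imDC by 0.86 (adjusted p = 8e-08). Slc6a15, a carrier of branched-chain amino acids and proline, had 6.50 ± 0.7500, 1.15 ± 0.131 and 1.179 ± 0.136 FPKM and fell in imDC by 1.80 (adjusted p = 4.4e-09). Mfsd12, needed for cystine import into lysosomes and melanosomes, had 12.4 ± 1.36, 8.45 ± 0.653 and 3.59 ± 0.859 FPKM and fell in IRDC by 1.55 against control (adjusted p = 6.5e-08). Slc25a15, the mitochondrial ornithine carrier, had 1.40 ± 0.227, 1.46 ± 0.133 and 3.47 ± 0.463 FPKM and was higher in IRDC than in imDC by 0.86 (adjusted p = 1.5e-05).

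Genes of the ATF4 response and its kinases were called in both directions. Of 19 tested 7 were higher and 8 lower in imDC against control, 8 and 10 in IRDC against control, and 8 and 9 in IRDC against imDC, with medians of -0.04, -0.17 and 0.05. The shares lower, 42.1%, 52.6% and 47.4%, lay beside 40.1%, 51.5% and 38.6% of all genes, and the shares higher, 36.8%, 42.1% and 42.1%, beside 23.1%, 24.5% and 20.2%. After quantile normalization 5 were lower in IRDC against imDC. Stc2, a secreted glycoprotein gene, had 11.0 ± 0.771, 74.1 ± 3.91 and 95.5 ± 1.098 FPKM and rose by 3.00 in IRDC against control (adjusted p = 7.2e-15). Ddit4, an inhibitor of mTORC1, had 24.2 ± 0.657, 107 ± 1.44 and 171 ± 1.65 FPKM, with a change of 2.77 (adjusted p = 3e-17). Cebpb, a partner of ATF4 on DNA, had 20.2 ± 1.64, 45.8 ± 2.04 and 84.5 ± 6.45 FPKM and was higher in IRDC than in imDC by 0.87 (adjusted p = 2.8e-07), while the kinase gene Eif2ak2, with 30.3 ± 1.08, 22.7 ± 0.436 and 12.8 ± 0.390 FPKM, was lower by 0.77 (adjusted p = 2.6e-09). Atf4 itself, chosen after its values were seen, had 156 ± 1.66, 200.1 ± 3.46 and 242 ± 2.99 FPKM and was higher at both steps, by 0.35 (SE 0.018, adjusted p = 3.6e-09) and 0.27 (SE 0.018, adjusted p = 6.2e-08).

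Genes of serine, glycine, asparagine and proline synthesis were mostly higher against control. Of 12 tested 9 were higher and 1 lower in imDC against control, 8 and 2 in IRDC against control, and 4 and 6 in IRDC against imDC, with medians of 0.78, 0.66 and -0.11. The shares higher against control were 75.0% and 66.7%, beside 23.1% and 24.5% of all genes. Mthfd1l, a mitochondrial one-carbon enzyme gene, rose from 4.48 ± 0.448 FPKM in control to 26.7 ± 1.39 in imDC and 44.8 ± 0.583 in IRDC. Shmt2, which makes glycine from serine in mitochondria, had 23.4 ± 0.495, 63.1 ± 0.621 and 80.4 ± 2.38 FPKM. It was higher in imDC by 1.40 (adjusted p = 5e-13) and in IRDC by 1.74 (adjusted p = 8.1e-15). Pycr1, the last step of proline synthesis, had 5.38 ± 0.537, 13.5 ± 1.14 and 9.91 ± 0.618 FPKM and fell from imDC to IRDC by 0.41 (adjusted p = 0.00058).

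Among 10 enzyme genes of glutamine and glutamate 6 were higher and 3 lower in imDC against control, 3 and 3 in IRDC against control, and 3 and 5 in IRDC against imDC, with medians of 0.13, 0.02 and -0.15. The count of higher genes in IRDC against control was 7 under TMM-like scaling and 5 after quantile normalization. Glud1, glutamate dehydrogenase, fell from 152 ± 2.41 FPKM in control to 78.1 ± 1.94 in imDC and 46.7 ± 0.634 in IRDC. Gls2, a glutaminase gene, had 1.84 ± 0.344, 5.90 ± 0.347 and 7.93 ± 0.492 FPKM and was higher by 1.29 in imDC (adjusted p = 1.1e-07) and by 1.66 in IRDC (adjusted p = 1.9e-09). Of 15 genes of cystine use and glutathione 5 were higher and 5 lower in imDC against control, and 5 and 7 in each of the comparisons of IRDC, with medians of -0.04, -0.04 and -0.06. After quantile normalization 8 were higher in IRDC against control. Ggt1, which cleaves extracellular glutathione, had 1.39 ± 0.147, 4.00 ± 0.140 and 14.9 ± 1.24 FPKM and rose by 2.73 in IRDC against control (adjusted p = 1.2e-12). Gclc, the catalytic subunit of the first enzyme of glutathione synthesis, had 41.8 ± 1.44, 23.3 ± 0.433 and 20.8 ± 0.390 FPKM and was lower in imDC by 0.81 (adjusted p = 3.5e-10).

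Of 9 arginine and ornithine enzyme genes 1 was higher in each comparison, Arg1, while 4, 7 and 6 were lower, with medians of -0.09, -0.69 and -0.22. With TMM-like scaling 2, 2 and 3 were higher. Arg1, arginase 1, which splits arginine into ornithine and urea, rose from 7.90 ± 0.154 FPKM in control to 37.8 ± 1.86 in imDC and 130.5 ± 3.48 in IRDC, beside the rise of the 3 cationic carrier genes. Sms and Odc1, enzymes of polyamine synthesis, had 17.7 ± 1.27, 15.5 ± 1.03 and 6.04 ± 0.857 and 45.6 ± 1.63, 47.0 ± 1.29 and 18.8 ± 0.413 FPKM. In IRDC against imDC they fell by 1.23 and 1.28 (adjusted p = 1.6e-07 and 9.4e-12). Of 15 genes of branched-chain amino acid breakdown 3 were higher and 7 lower in imDC against control, 4 and 8 in IRDC against control, and 2 and 10 in IRDC against imDC, with medians of -0.02, -0.46 and -0.35. The shares lower against control, 46.7% and 53.3%, were near the 40.1% and 51.5% of all genes, and the share lower in IRDC against imDC was 66.7%, beside 38.6%. With TMM-like scaling the first of these counts was 6 higher and 4 lower. Ivd, isovaleryl-CoA dehydrogenase of leucine breakdown, had 33.4 ± 1.09, 25.4 ± 0.698 and 15.3 ± 1.56 FPKM and was lower in IRDC than in imDC by 0.70 (adjusted p = 1.2e-06).

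Of 31 genes of amino acid sensing by mTORC1, 2 were higher and 16 lower in imDC against control, 2 and 24 in IRDC against control, and 2 and 15 in IRDC against imDC, with medians of -0.14, -0.35 and -0.16 beside -0.09, -0.18 and -0.09 for all genes. The shares lower were 51.6%, 77.4% and 48.4%, beside 40.1%, 51.5% and 38.6% of all genes. Counts of higher genes under TMM-like scaling and quantile normalization were 5 in IRDC against control, and 4 and 5 in IRDC against imDC. Sesn3, a gene of the sestrins that restrain mTORC1, fell from 34.0 ± 0.628 FPKM in control to 17.6 ± 0.679 in imDC and 6.83 ± 0.147 in IRDC. Flcn and Fnip2, partners in the folliculin complex at the lysosome, had 28.1 ± 0.967, 12.3 ± 1.07 and 11.3 ± 0.277 and 15.4 ± 0.745, 6.54 ± 0.122 and 6.73 ± 0.295 FPKM and fell in imDC by 1.13 and 1.12 (adjusted p = 1.2e-09 and 9.8e-10). Depdc5, a subunit of the GATOR1 complex that switches mTORC1 off, had 3.96 ± 0.318, 3.76 ± 0.0251 and 5.79 ± 0.211 FPKM and was higher in IRDC than in imDC by 0.51 (adjusted p = 1.8e-05).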

How the data were processed

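Rat BMSC mRNA libraries (4 control, 3 imDC and 4 IRDC) came as 1 table of FPKM, which the authors made on the rn6 build. The submitters' processing notes list STAR 2.7.1a, HTSeq 0.13.5 and Cufflinks 0.17.3, beside cutadapt 1.18, SAMtools 1.3.1 and FastQC 0.11.9, without saying which made the FPKM. Strand handling is not given in the sources used here, so overlapping genes may share reads. Per the labels' protocols, mRNA was captured on beads from TRIzol extracts and sequenced on a NovaSeq.

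Levels were taken as log2(FPKM + 1), a scale computed here from the deposited FPKM. A gene entered the test if 3 or more libraries had 1 FPKM or more. All 11 libraries were fitted in 1 limma model (eBayes with a trend, no block), with Benjamini-Hochberg adjustment per comparison and calls at adjusted p under 0.05. Where several lines shared a name (192 names, none of them a transporter gene), a gene was looked up by its highest line. Whole reads were recovered from the FPKM steps (21487 of 21487 genes above 0, relative tolerance 1e-08, no value more than 0.1 read off). Those reads gave the depth, 17.8 to 25.5 M per library, the floor of 3 reads for zeros and a fit with voom. The floor covers the counting error of the zeros only and takes the reads of the other group as exact. Reads of sparse genes are lower limits, since the smallest whole numbers that give the observed ratios were taken, and for 1676 genes above 0 in a single library the result of 1 read is fixed in advance.

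Alternatives were voom, array weights, no trend, a replicate block, fits of the compared groups alone, quantile normalization, TMM-like scaling, pseudocounts of 0.1 and 0.5, a stricter filter (5 FPKM) or none, and leaving out each library. The fit was tested on simulated data. Values by library are given for members with a call and at least a 1.5-fold change in any comparison or a mean of at least 20 FPKM in any group. Up to 3 called genes of the largest change per pathway list and comparison could be named. A gene that this rule takes is not reported here. The members and lists were chosen with earlier results of these data known. Promoters are RefSeq's on GRCr8. Software was Python 3.11.15, NumPy 2.4.6, pandas 2.3.3, matplotlib 3.10.9, R 4.3.3 and limma 3.58.1.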

Additional observations from a re-analysis of the deposited data

Results flagged for a closer look

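In the 2 groups of 4 libraries, the control and IRDC groups, 56 sets of 4 values of the 28 genes tested were searched for a library far from the other 3, and 4 were found, all in IRDC. Chance flags about 1 in 20 such sets. Slc7a6os stood at 13.6 FPKM in IRDC library 2, below 15.1 to 15.2 in the others. Slc36a4, of a high-affinity amino acid carrier, stood at 6.93 FPKM in IRDC library 4, below 7.76 to 7.89 in the others. Slc38a1, of a system A carrier, stood at 4.11 FPKM in IRDC library 3, above 3.23 to 3.35 in the others. Slc38a10 stood at 92.4 FPKM in IRDC library 1, below 95.2 to 95.5 in the others. The 4 values come from 4 different libraries.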

How the results depend on the processing

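No count of higher or lower transporter genes, and no count of calls over all genes, moved by more than 1.5 times under the alternatives. Of 28 genes tested, 18 kept their calls in all 3 comparisons under each of the 22 alternatives in which they were tested. Slc1a5, Slc7a6, Slc7a6os, Slc7a8, Slc38a1, Slc38a2, Slc38a7, Slc38a9, Slc38a10 and Slc43a1 did not. Slc1a1, Slc1a2, Slc3a1 and Slc7a3, counted among the 18, did not pass the filter of 5 FPKM and were not tested there. Over 1824 values 1787 kept direction and call, 9 lost the call, 26 gained it and 2 turned: Slc7a6os in IRDC against control with TMM-like scaling (0.017) and Slc38a1 in the same comparison with quantile normalization (0.22). The cause was not tested. Left-out libraries gave 12 to 13 higher and 7 to 8 lower genes in imDC against control, 12 and 11 to 12 in IRDC against control, and 10 to 11 and 8 to 9 in IRDC against imDC. Slc7a8 was called lower in imDC than in control without imDC library 1 (-0.22), without a trend (-0.16) and with voom (-0.20), and Slc38a7 was called higher in IRDC than in imDC with quantile normalization (0.12). Of 1056 counts over the pathway lists 26 moved by more than 1.5 times, most of them under another scaling.

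Replicate numbers are shared by the groups, but the 10 pairs of libraries with the same number had correlations of -0.048 to 0.069 between their deviations, none over 0.1. These values gave no sign that the numbers pair the libraries, though a small shared effect could go unseen. With the replicate block the single change among transporter genes was a call of Slc38a10 in imDC against control (0.06, adjusted p = 0.046). Depth limits the 15 genes under the filter, of which 12 had at most 10 reads in each library.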
